A study of Mus musculus with 12 samples.

Results

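The glycolysis and hypoxia response genes described here are 39 mouse genes, chosen by name: the transporters and enzymes that carry glucose to lactate, the kinases that steer pyruvate and fructose bisphosphate, and genes of the response to low oxygen. All 39 names were found among the 41079 gene IDs of the tables. The rule uses names, but these genes and the lists set beside them were chosen with earlier results of these data known. Their counts beside all tested genes therefore describe the lists and are no independent test of them. Of the 39, 37 passed a filter on low values (a mean of at least 1 TPM over the 12 libraries; TPM is read coverage scaled for gene length and library size); Car9 and Adm did not and were not tested.

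RNA-seq was made from mouse embryonic stem cells, the pluripotent cells of the early embryo kept in culture, to ask how gene expression depends on Bod1l, a subunit of the SETD1A histone methyltransferase complex, with and without DNA damage. The untreated knockout group was labelled Bod1L KO with Tamoxifen, and the untreated wild-type group Bod1L WT. The third group was Bod1L KO with Tamoxifen and Etoposide, and the fourth Bod1L WT with Etoposide, a topoisomerase II inhibitor that breaks DNA. Each group had 3 libraries labelled as biological replicates. Tamoxifen is named for the knockout libraries alone, so its effect and that of the knockout cannot be told apart, and the labels give neither the deleted part of Bod1l, the dose and duration of either agent, nor whether the knockout is 1 clone.

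Glycolysis splits glucose into pyruvate with a small yield of ATP, and lactate dehydrogenase then turns pyruvate into lactate, which leaves the cell through monocarboxylate transporters. Pluripotent stem cells are known for a high rate of glycolysis even when oxygen is present. In low oxygen the transcription factor HIF-1, whose alpha subunit is encoded by Hif1a, escapes the prolyl hydroxylases that mark it for destruction and raises many genes of this list, from Slc2a1 and Ldha to Bnip3, by binding short ACGTG or GCGTG motifs near their starts.

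The promoters of the genes with the clearest genotype differences are shown so that these motifs can be read beside the expression values. RefSeq windows of 300 bases (250 before to 50 after the start, build GRCm38.p6) were listed for 37 of the 39 genes; Slc2a3 and Ndrg1 are named only. The windows are those of Ldha (chr7:46845554-46845853, plus strand, the first of 2 listed), Pgk1 (chrX:106186850-106187149, plus strand), Tpi1 (chr6:124814109-124814408, minus strand), Eno1 (chr4:150236458-150236757, plus strand, the first of 3) and Pkm (chr9:59656326-59656625, plus strand, the first of 2), which by rule were the 2 marker genes and the 3 other members with the lowest adjusted p between untreated knockout and wild type. Slc16a3 (chr11:120948817-120949116, plus strand) and Bnip3 (chr7:138909457-138909756, minus strand) were added after their values were seen, since they fell the most. Each is written 5' to 3' on the gene's strand, with ACGTG or GCGTG on either strand (CACGT or CACGC where the match lies on the other strand) in capitals.
Ldha: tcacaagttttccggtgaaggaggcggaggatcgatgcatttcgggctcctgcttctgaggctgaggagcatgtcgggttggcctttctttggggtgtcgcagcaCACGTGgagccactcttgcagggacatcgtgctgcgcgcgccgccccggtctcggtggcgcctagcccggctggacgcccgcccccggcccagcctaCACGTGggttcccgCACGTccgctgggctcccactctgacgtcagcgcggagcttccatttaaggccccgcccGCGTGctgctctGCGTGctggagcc
Pgk1: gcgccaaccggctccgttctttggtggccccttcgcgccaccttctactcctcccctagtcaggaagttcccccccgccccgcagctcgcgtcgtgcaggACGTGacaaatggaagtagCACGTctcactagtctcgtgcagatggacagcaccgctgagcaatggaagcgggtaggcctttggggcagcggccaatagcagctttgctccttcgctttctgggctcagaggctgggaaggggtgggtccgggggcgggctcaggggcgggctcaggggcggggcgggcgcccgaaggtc
Tpi1: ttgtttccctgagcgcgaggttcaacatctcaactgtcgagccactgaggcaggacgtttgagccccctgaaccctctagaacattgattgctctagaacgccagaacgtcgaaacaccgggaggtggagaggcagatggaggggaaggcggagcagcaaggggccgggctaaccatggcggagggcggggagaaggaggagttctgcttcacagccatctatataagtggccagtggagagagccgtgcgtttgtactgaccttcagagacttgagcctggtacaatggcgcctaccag
Eno1: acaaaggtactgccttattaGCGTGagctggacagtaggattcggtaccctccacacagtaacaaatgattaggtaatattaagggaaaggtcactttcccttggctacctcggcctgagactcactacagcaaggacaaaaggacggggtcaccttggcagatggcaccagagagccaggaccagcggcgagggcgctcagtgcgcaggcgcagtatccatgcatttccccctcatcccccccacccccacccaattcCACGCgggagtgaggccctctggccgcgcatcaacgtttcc
Pkm: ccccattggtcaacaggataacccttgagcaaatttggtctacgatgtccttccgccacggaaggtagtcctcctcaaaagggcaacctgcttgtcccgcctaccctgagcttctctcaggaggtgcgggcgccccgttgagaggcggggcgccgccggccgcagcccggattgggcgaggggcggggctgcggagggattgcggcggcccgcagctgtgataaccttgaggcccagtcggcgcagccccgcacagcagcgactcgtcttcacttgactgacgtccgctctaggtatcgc
Slc16a3: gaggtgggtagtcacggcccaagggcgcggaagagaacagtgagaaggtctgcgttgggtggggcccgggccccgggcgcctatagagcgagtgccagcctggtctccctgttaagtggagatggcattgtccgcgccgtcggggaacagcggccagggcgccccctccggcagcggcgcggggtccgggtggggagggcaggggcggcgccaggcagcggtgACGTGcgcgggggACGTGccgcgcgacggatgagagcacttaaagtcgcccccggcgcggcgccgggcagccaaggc
Bnip3: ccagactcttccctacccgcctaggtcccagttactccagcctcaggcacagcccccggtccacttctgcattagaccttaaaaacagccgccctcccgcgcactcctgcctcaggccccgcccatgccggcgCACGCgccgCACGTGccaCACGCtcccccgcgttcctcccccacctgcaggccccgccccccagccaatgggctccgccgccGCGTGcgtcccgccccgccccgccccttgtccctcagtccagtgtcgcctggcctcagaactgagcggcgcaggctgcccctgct
The Ldha window held 7 matches at 5 separate sites, since the palindrome CACGTG, which occurs there 2 times, matches on both strands. The Bnip3 window held 5 matches at 4 sites with 1 CACGTG, while Pgk1, Eno1 and Slc16a3 had 2 matches each and the printed windows of Tpi1 and Pkm had 0. At least 1 match was present in some window of 34 of the 37 genes (91.9%), against 66.7% of all tested genes with a window. Per window the shares were 77.8% and 61.0%, and 43.8% over all windows in RefSeq. Among members lower in untreated knockout cells 22 of 24 held a match, and among the other tested members 10 of 11 did. A match is a description of letters in this window and not a mapped binding site.

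The targeted gene followed its labels. Bod1l had a mean of 11.6 ± 0.415 TPM in untreated knockout libraries and 49.3 ± 1.12 TPM in untreated wild-type libraries, and 12.4 ± 0.602 TPM and 48.7 ± 2.31 TPM in etoposide-treated knockout and wild-type libraries (SD, n = 3 each). Depth was estimated from the most common ratio of coverage to FPKM, which 30.2% to 31.2% of genes above 1 FPKM shared in each library; read as aligned bases, it came to 5.23 to 6.51 gigabases in untreated knockout and 6.64 to 7.30 gigabases in untreated wild-type libraries, which did not overlap, and to 6.88 to 7.76 and 5.78 to 7.04 gigabases under etoposide. The part of depth in the genotype differences was not tested. Within groups, log2 values of pairs of libraries correlated at 0.994 to 0.996 across genes. Of 10 embryonic stem cell marker names 9 were found, all at a mean of at least 1 TPM. Their summed level was 7798 to 7907 TPM in untreated knockout and 8449 to 8457 TPM in untreated wild-type libraries. Under etoposide it was 7396 to 7724 TPM in knockout and 7937 to 8257 TPM in wild-type libraries. The genotypes did not overlap at either treatment. Of 9 feeder fibroblast markers, 6 stayed under 1 TPM in every library, and the sum was 9.79 to 11.1 TPM in untreated knockout and 10.9 to 12.0 TPM in untreated wild-type libraries. Under etoposide it was 9.97 to 10.4 TPM in knockout and 11.1 to 12.0 TPM in wild-type libraries, which did not overlap. The 7 extraembryonic endoderm markers summed to 6.56 to 7.62 TPM in untreated knockout and 3.56 to 4.46 TPM in untreated wild-type libraries, which did not overlap. Under etoposide they summed to 7.05 to 8.13 and 5.14 to 7.16 TPM, which overlapped. Of these markers, 3 stayed under 1 TPM in every library. Neuroectoderm markers summed to 12.9 to 14.2 TPM in untreated knockout and 12.4 to 13.1 TPM in untreated wild-type libraries, and mesoderm markers to 15.3 to 18.4 and 16.3 to 19.8 TPM. In etoposide-treated knockout and wild-type libraries, neuroectoderm markers summed to 11.5 to 12.8 and 9.85 to 11.1 TPM, which did not overlap, and mesoderm markers to 14.9 to 15.7 and 13.96 to 15.9 TPM. The part of these marker shifts in the results was not tested, and in bulk RNA fewer expressing cells and less RNA per cell cannot be told apart.

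In untreated cells the glycolytic route was lower in the knockout along almost its whole length. Of the 37 tested genes, 24 fell and 4 rose in untreated knockout relative to untreated wild-type cells, and 9 did not pass the test (limma on log2(TPM + 1), Benjamini-Hochberg adjusted p under 0.05 over 14107 genes). Over all tested genes 49.6% passed, with 21.5% falling and 28.1% rising. All knockout libraries lay below all wild-type libraries for 27 members and above them for 4, which held for 24.7% and 32.8% of all tested genes (57.4% together). The median log2 difference of the 37 genes was -0.31, and that of all tested genes 0.04. These contrasts describe a list chosen with earlier results of these data known. Together the 39 genes made up 1.01% ± 0.0250 of all TPM in untreated knockout and 1.29% ± 0.0320 in untreated wild-type libraries (SD, n = 3 each; two-sided exact permutation p = 0.1, the smallest that 3 against 3 libraries allow). The 18 enzymes from hexokinase to lactate dehydrogenase summed to 8047 ± 252 TPM in untreated knockout and 10885 ± 208 TPM in untreated wild-type libraries, 73.9% of the wild-type level.

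Both genotype comparisons came from 1 fit with 1 spread per gene over all 12 libraries, so their p-values are not independent. Under etoposide the genotype difference was measured in libraries that share none with the untreated comparison. There 27 of the 37 genes fell, 1 rose and 9 did not pass in knockout relative to wild-type cells, while 44.1% of all tested genes passed, with 21.7% falling and 22.5% rising. The groups did not overlap for 28 lower and 3 higher members, against 26.1% and 28.1% of all tested genes (54.3% together). Of these genes, 23 fell in both genotype comparisons, 1 (Slc2a3) rose in both, and 5 (Pdk2, Pdk3, Hif1a, Ndrg1 and Kdm3a) passed in neither, of which all but Kdm3a passed in at least 1 comparison when some single library was left out. The 18 enzymes summed to 7859 ± 92.8 TPM in etoposide-treated knockout and 10286 ± 397 TPM in etoposide-treated wild-type libraries, or 76.4%.

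**Figure D1:**
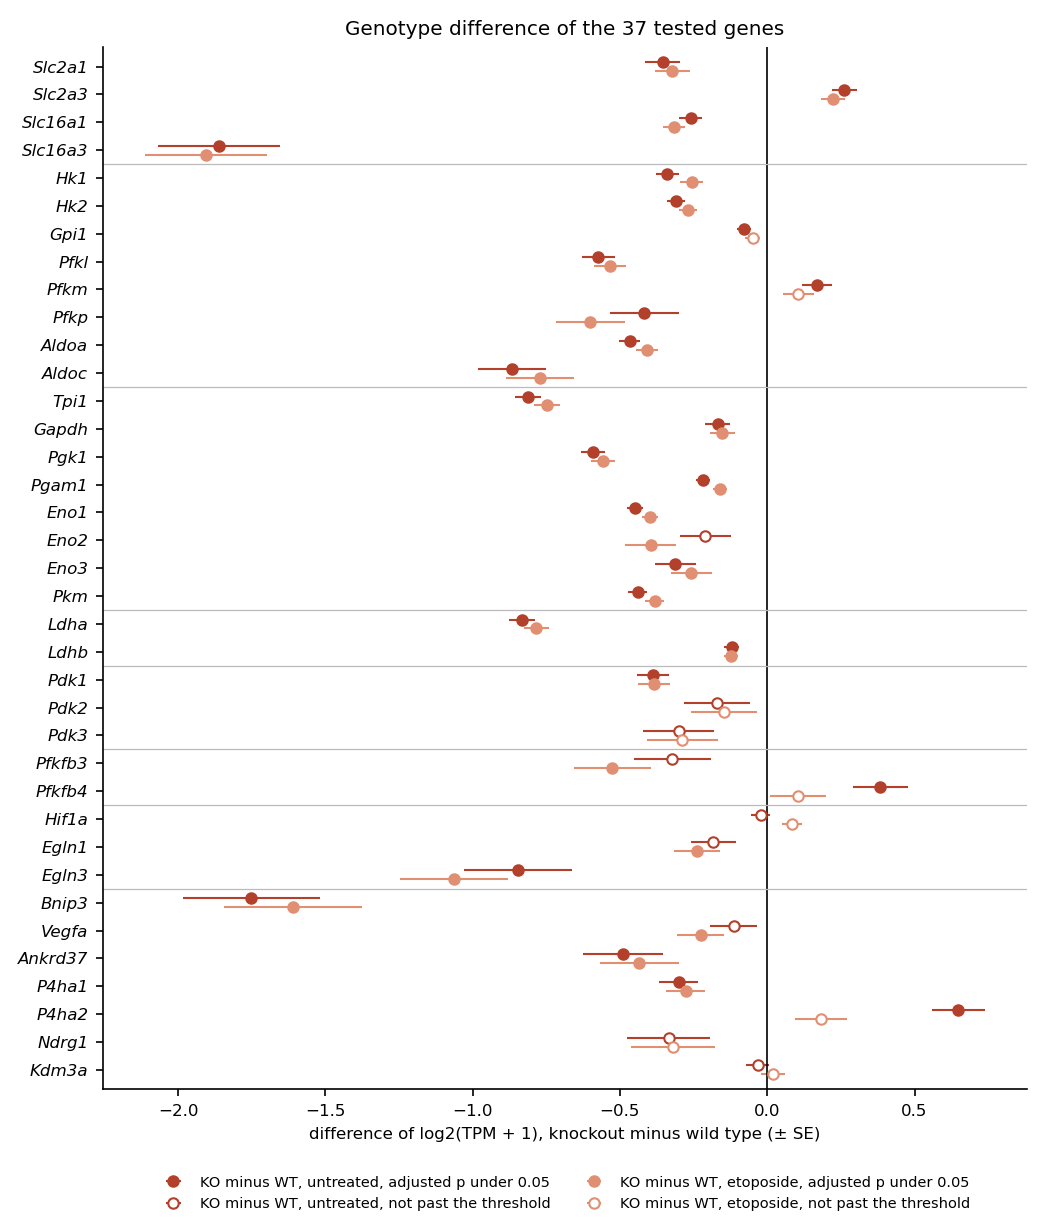
Difference of log2(TPM + 1) between knockout and wild type for the 37 tested genes, grouped by role with thin lines, as a point with its standard error; dark points are untreated and light points etoposide-treated libraries, and filled points have an adjusted p under 0.05. Most points lie left of 0, Slc16a3 and Bnip3 farthest at -1.86 and -1.75 in untreated cells, and Slc2a3 lies right of 0 in both comparisons.

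Of the transporters, the lactate exporter Slc16a3 (MCT4) had the largest difference of all tested members. It had 7.10, 7.68 and 7.44 TPM in untreated knockout libraries, against 23.2, 33.8 and 32.8 TPM in untreated wild-type libraries. Under etoposide it had 7.14, 6.37 and 5.25 TPM in knockout, against 33.4, 17.3 and 30.4 TPM in wild-type libraries. The genotypes did not overlap in either pair, and wild-type replicate 2 under etoposide was lower than the other wild-type libraries. The log2 difference was -1.86 ± 0.21 (SE; limma adjusted p = 1.56e-05) without and -1.91 ± 0.21 (1.57e-05) with etoposide, the 17th lowest of 14107 tested genes in each case. Slc16a3 overlaps Csnk1d on the opposite strand, and the use of strand in counting is not stated; Csnk1d itself had 96.3 and 91.3 TPM in untreated knockout and wild-type cells.

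The broadly expressed lactate transporter Slc16a1 (MCT1) showed a smaller difference in the same direction. It had 106, 98.0 and 99.7 TPM in untreated knockout and 119.5, 118 and 128 TPM in untreated wild-type libraries. With etoposide, it had 77.7, 78.4 and 76.9 TPM in knockout against 95.3, 99.8 and 95.8 TPM in wild-type libraries. The genotypes were again apart, by -0.26 ± 0.04 without (limma adjusted p = 0.00013) and -0.32 ± 0.04 with etoposide (3.44e-05). As a share of both monocarboxylate transporters, Slc16a3 gave 6.83% ± 0.505 in untreated knockout and 19.7% ± 3.13 in untreated wild-type libraries (SD, n = 3 each; exact permutation p = 0.1, the smallest possible).

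The 2 glucose importers moved in opposite directions. Slc2a1 (GLUT1), a widely used glucose transporter, fell to a mean of 301 ± 9.98 TPM in untreated knockout, against 386 ± 31.3 TPM in untreated wild-type libraries, a difference of -0.36 ± 0.06. Slc2a3 (GLUT3), a transporter of high glucose affinity, was the more abundant of the pair and rose to 1287 ± 40.0 TPM in untreated knockout, against 1074 ± 63.0 TPM in untreated wild-type libraries, a difference of 0.26 ± 0.04. Both calls recurred under etoposide, at -0.32 for Slc2a1 and 0.22 for Slc2a3 (limma adjusted p = 0.00101 and 0.00102). Slc2a1 thus gave 19.0% ± 0.487 of the summed TPM of the pair in untreated knockout and 26.4% ± 0.494 in untreated wild-type libraries, with no overlap (exact permutation p = 0.1).

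**Figure D2:**
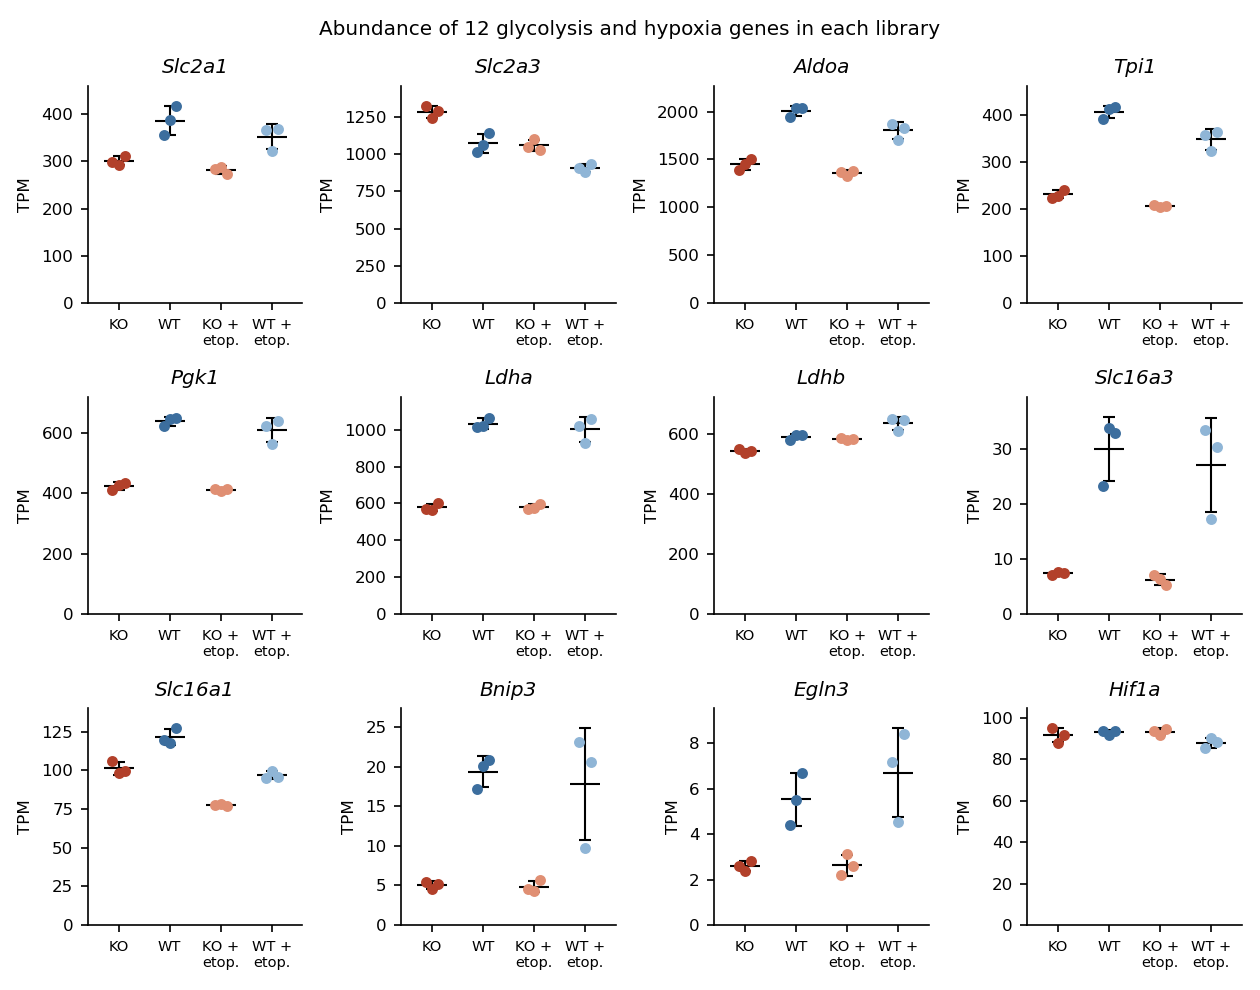
TPM of 12 members in each of the 12 libraries (points), with the mean and SD of each group of 3 (bars); groups run from untreated knockout and wild type to etoposide-treated knockout and wild type. Aldoa, Tpi1, Pgk1, Ldha, Slc16a3, Bnip3 and Egln3 are lower in both knockout groups, Slc2a3 is higher in knockout at each treatment, and the Hif1a libraries of the untreated genotypes overlap.

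In the upper stage of glycolysis, from hexokinase to aldolase, 7 of 8 genes fell in untreated knockout cells and 1, Pfkm, rose. Aldoa, the main aldolase of these cells, had 1393, 1453 and 1507 TPM in untreated knockout and 1941, 2041 and 2036 TPM in untreated wild-type libraries. In etoposide-treated cells it had 1368, 1325 and 1379.9 TPM in knockout and 1873, 1708 and 1829 TPM in wild-type libraries. The groups did not overlap at either treatment, with differences of -0.47 ± 0.04 and -0.41 ± 0.04 (limma adjusted p = 9.02e-07 and 3.53e-06). Gm57854, which overlaps Aldoa on the same strand, had 8.42 TPM over all libraries, and reads of the 2 could be split between them. Aldoc, the scarce brain-type aldolase, averaged 4.58 ± 0.712 TPM in untreated knockout and 9.17 ± 1.14 TPM in untreated wild-type libraries (-0.87 ± 0.12). The hexokinases, which trap glucose as glucose 6-phosphate, both fell, Hk1 with a log2 difference of -0.34 ± 0.04 and Hk2 with -0.31 ± 0.03 in untreated cells, and Hk2 made up 70.1% of their sum in knockout and 69.6% in wild-type libraries. Gpi1, the isomerase of the second step, showed the smallest called difference, -0.08 ± 0.02, which did not pass under etoposide (-0.05 ± 0.02; limma adjusted p = 0.122, and 0.0476 without etoposide-treated wild-type replicate 2), nor in untreated cells without wild-type replicate 3 (-0.06, limma adjusted p = 0.0708) or after quantile normalization (-0.04, 0.234).

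The 3 phosphofructokinase genes, which encode the liver, muscle and platelet types of the committed step, differed in direction. Pfkl had 54.6, 53.9 and 58.5 TPM in untreated knockout and 78.5, 84.5 and 87.1 TPM in untreated wild-type libraries. After etoposide, values were 58.6, 60.3 and 57.5 TPM in knockout against 90.5, 78.5 and 88.1 TPM in wild-type libraries. It fell, with a log2 difference of -0.57 ± 0.05 and -0.53 ± 0.05 (limma adjusted p = 4.54e-06 and 1.03e-05), without overlap. Pfkp fell, with a log2 difference of -0.42 ± 0.12 in untreated and -0.60 ± 0.12 in etoposide-treated knockout cells. Pfkm instead averaged 34.1 ± 1.01 TPM in untreated knockout and 30.2 ± 1.19 TPM in untreated wild-type libraries, a rise of 0.17 ± 0.05 (limma adjusted p = 0.0176). The call was lost without wild-type replicate 1 (0.0661), knockout replicate 1 (0.0514) or knockout replicate 3 (0.0547). Under etoposide the difference was 0.11 ± 0.05 (0.123), which passed without etoposide-treated wild-type replicate 3 (0.049). Pfkm made up 21.8% ± 2.07 of phosphofructokinase TPM in untreated knockout and 14.9% ± 0.302 in untreated wild-type libraries. Pfkm overlaps Senp1, and Pfkp overlaps Pitrm1, on the opposite strand; Pitrm1 rose by 0.24 in untreated knockout cells and Senp1 differed by -0.07, which did not pass.

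In the lower stage, from triose phosphate isomerase to pyruvate kinase, 7 of 8 genes fell in untreated knockout cells and all 8 fell under etoposide. Tpi1, which interconverts the triose phosphates, had 224, 228 and 241 TPM in untreated knockout and 391, 411 and 415 TPM in untreated wild-type libraries. Etoposide-treated libraries had 208, 204 and 207 TPM in knockout and 357, 322 and 363 TPM in wild-type libraries. Each knockout library lay well under each wild-type library, and the difference was -0.81 ± 0.04 and -0.75 ± 0.04 (limma adjusted p = 3.38e-08 and 8.47e-08). Spsb2, which overlaps Tpi1 on the opposite strand at a far lower level (6.79 against 298 TPM over all libraries), fell, with a log2 difference of -0.81 ± 0.09 as well, and reads of the pair cannot be told apart without strand.

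Pgk1, which makes the first ATP of the pathway, had 409, 426 and 433 TPM in untreated knockout and 620.4, 645 and 647 TPM in untreated wild-type libraries. With etoposide it had 414, 406 and 415 TPM in knockout and 620.0, 563 and 639 TPM in wild-type libraries. These ranges were apart by -0.59 ± 0.04 and -0.56 ± 0.04 (limma adjusted p = 2.36e-07 and 4.94e-07). Eno1, the main enolase, had 1260.4, 1285 and 1345 TPM in untreated knockout and 1731, 1799 and 1784 TPM in untreated wild-type libraries. Under etoposide it had 1309, 1282 and 1319.9 TPM in knockout and 1746, 1667 and 1739 TPM in wild-type libraries. It fell, with a log2 difference of -0.45 ± 0.03 and -0.40 ± 0.03 (1.02e-07 and 3.63e-07). Its near-identical copy Eno1b, with which reads can be shared, averaged 335 and 470.5 TPM in untreated knockout and wild-type cells, so the split between the 2 loci is uncertain while both fell (-0.49 for Eno1b).

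Pyruvate kinase Pkm was the most abundant member in wild-type cells, 37th of all genes, and averaged 1852 ± 78.9 TPM in untreated knockout and 2511 ± 49.0 TPM in untreated wild-type libraries (-0.44 ± 0.03; limma adjusted p = 4.93e-07). Gapdh, often used as a reference gene, fell, with a log2 difference of -0.17 ± 0.04 without and -0.15 ± 0.04 with etoposide, and Pgam1, the mutase, by -0.22 ± 0.02 and -0.16 ± 0.02. The muscle enolase Eno3 fell, with a log2 difference of -0.31 ± 0.07 and -0.26 ± 0.07. It overlaps Pfn1, an opposite-strand gene at 1466 TPM over all libraries that did not pass in either comparison. The neuronal enolase Eno2 differed by -0.21 ± 0.09 in untreated cells (limma adjusted p = 0.0619) and fell, with a log2 difference of -0.40 ± 0.09 under etoposide (0.00303); without wild-type replicate 3 the untreated difference passed as well (-0.31, 0.00587).

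At the end of the pathway both lactate dehydrogenases fell, by unequal amounts. Ldha, the isoform suited to making lactate, had 571, 566 and 602 TPM in untreated knockout and 1014, 1019.6 and 1065 TPM in untreated wild-type libraries. With etoposide, it had 572, 575 and 598 TPM in knockout and 1022, 929 and 1059.5 TPM in wild-type libraries. The difference was -0.83 ± 0.04 without and -0.78 ± 0.04 with etoposide (limma adjusted p = 2.87e-08 and 5.97e-08), the lowest adjusted p of the 37 genes in both comparisons. Ldhb, the isoform that favours lactate oxidation, had 549, 534 and 543 TPM in untreated knockout and 579.7, 595 and 595 TPM in untreated wild-type libraries. In etoposide-treated cells it had 585, 578 and 583 TPM in knockout against 649, 609 and 645 TPM in wild-type libraries. It also fell, by only -0.12 ± 0.02 in each comparison (0.00146 and 0.0016), and after quantile normalization the untreated call was lost (-0.05, 0.117). Ldha accordingly supplied 51.7% ± 0.837 of lactate dehydrogenase TPM in untreated knockout and 63.7% ± 0.507 in untreated wild-type libraries, and 49.99% ± 0.613 in knockout against 61.2% ± 0.894 in wild-type libraries under etoposide (SD, n = 3 each; exact permutation p = 0.1 for both, the smallest possible).

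**Figure D3:**
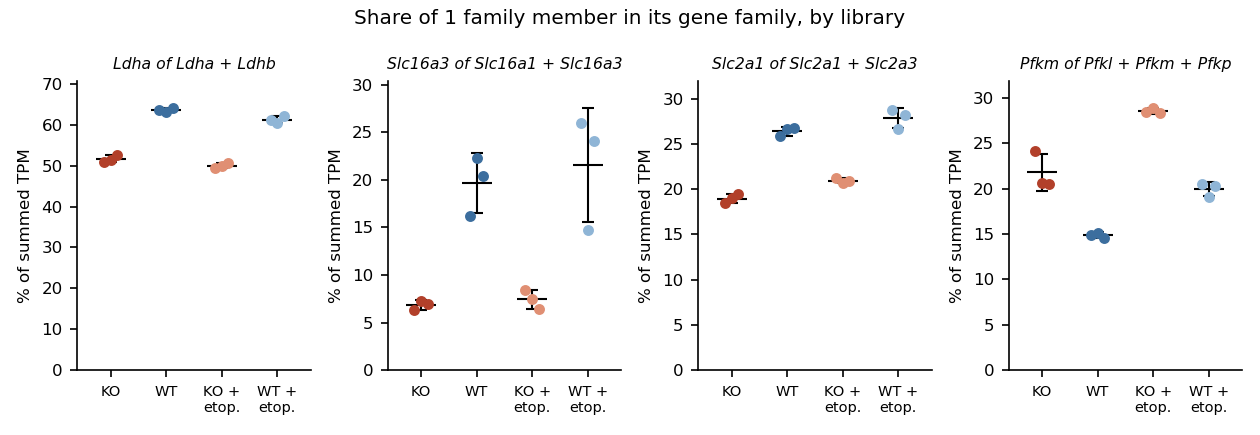
Share of 1 gene in the summed TPM of its family in each library, in percent, with the mean and SD of each group of 3. Ldha, Slc16a3 and Slc2a1 take a smaller share in knockout than in wild-type libraries at each treatment, and Pfkm a larger one; Pfkm also takes a larger share under etoposide in both genotypes.

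Among the regulatory enzymes, Pdk1, a kinase that closes pyruvate dehydrogenase and so limits the entry of pyruvate into the tricarboxylic acid cycle, had 29.8, 30.7 and 28.1 TPM in untreated knockout and 37.1, 39.6 and 40.2 TPM in untreated wild-type libraries. After etoposide, values were 30.0, 31.6 and 32.9 TPM in knockout and 44.4, 40.7 and 39.3 TPM in wild-type libraries. It fell, with a log2 difference of -0.39 ± 0.05 in both comparisons, without overlap (limma adjusted p = 0.0001 and 0.000133). Pdk3, a related kinase, had 31.9, 22.9 and 29.2 TPM in untreated knockout and 36.4, 30.5 and 36.6 TPM in untreated wild-type libraries, which overlapped. Under etoposide Pdk3 had 23.4, 27.0 and 27.3 TPM in knockout against 35.1, 27.6 and 33.0 TPM in wild-type libraries, which did not overlap. Its differences of -0.30 ± 0.12 and -0.29 ± 0.12 did not pass (0.0565 and 0.0728). The untreated one passed without wild-type replicate 2 (0.0322), knockout replicate 1 (0.0237) or etoposide-treated wild-type replicate 2 (0.0444). The treated one passed without etoposide-treated wild-type replicate 2 (-0.39, 0.0309) or untreated knockout replicate 2 (0.0327), and with the compared groups alone (0.0375). Pdk2 differed by -0.17 and -0.15, which did not pass (limma adjusted p = 0.228 and 0.314), although the untreated difference did without wild-type replicate 1 (-0.30, 0.0326).

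The bifunctional enzymes that set fructose 2,6-bisphosphate, the activator of phosphofructokinase, did not move together. Pfkfb4 had 6.06, 6.42 and 5.94 TPM in untreated knockout and 4.98, 4.43 and 4.05 TPM in untreated wild-type libraries, a rise of 0.38 ± 0.09 without overlap (limma adjusted p = 0.00497). Under etoposide the groups of Pfkfb4 overlapped, at 7.39, 7.04 and 8.11 TPM in knockout and 6.10, 7.89 and 6.82 TPM in wild-type libraries (0.10 ± 0.09). Pfkfb3, the isoform linked to high glycolysis, had 4.61, 4.10 and 4.96 TPM in untreated knockout and 5.01, 6.36 and 6.54 TPM in untreated wild-type libraries. Etoposide-treated libraries had 3.17, 3.26 and 3.63 TPM in knockout against 6.40, 4.17 and 5.41 TPM in wild-type libraries. Its difference was -0.32 ± 0.13 without etoposide, which did not pass (0.0569), and -0.53 ± 0.13 with it, which did (0.00624). Without wild-type replicate 1, or without either of the etoposide-treated wild-type replicates 1 and 2, the untreated difference of Pfkfb3 passed too (0.0247 to 0.0367).

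Of the HIF subunit and its hydroxylases, Hif1a did not pass between genotypes and Egln3 fell. Hif1a transcripts averaged 91.5 ± 3.54 TPM in untreated knockout and 92.9 ± 1.03 TPM in untreated wild-type libraries, a difference of -0.02 ± 0.03 with a 95% interval of -0.09 to 0.05. Under etoposide they averaged 93.2 ± 1.65 TPM in knockout against 87.9 ± 2.40 TPM in wild-type libraries, which did not overlap. This difference of 0.08 ± 0.03 did not pass (limma adjusted p = 0.0541). It passed without untreated knockout replicate 1 or 2 or without etoposide-treated wild-type replicate 2 (0.0383 to 0.0464). It also passed under median-of-ratios scaling (0.0479) and quantile normalization (0.0363). HIF-1 activity is set mainly at the protein, which these libraries do not measure. Egln3, a HIF prolyl hydroxylase that is itself a HIF target, had 2.60, 2.38 and 2.83 TPM in untreated knockout and 4.38, 5.53 and 6.69 TPM in untreated wild-type libraries. Under etoposide it had 2.19, 3.11 and 2.58 TPM in knockout against 7.17, 4.55 and 8.43 TPM in wild-type libraries. It fell, with a log2 difference of -0.84 ± 0.18 and -1.06 ± 0.18, without overlap (0.00231 and 0.000598). Egln1, the principal HIF hydroxylase, had 11.1, 11.8 and 12.7 TPM in untreated knockout and 12.6 to 14.2 TPM in untreated wild-type libraries, which overlapped slightly. Under etoposide Egln1 had 11.2, 10.4 and 12.5 TPM in knockout against 14.3, 12.8 and 13.6 TPM in wild-type libraries, which did not overlap. Its difference was -0.18 ± 0.08 without etoposide (0.0654) and -0.24 ± 0.08 with it (0.0243). The untreated difference passed without wild-type replicate 1, knockout replicate 3 or etoposide-treated knockout replicate 3 (0.0387 to 0.0486). The treated call was lost without etoposide-treated wild-type replicate 1 or 3 or etoposide-treated knockout replicate 1 or 2 (0.0594 to 0.1).

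Of the other hypoxia-response genes, 3 of 7 tested fell and 1 rose in untreated knockout cells. Bnip3, which marks mitochondria for removal by autophagy, had 5.48, 4.50 and 5.21 TPM in untreated knockout and 17.2, 20.2 and 20.9 TPM in untreated wild-type libraries. With etoposide, it had 4.51, 4.34 and 5.66 TPM in knockout and 23.1, 9.72 and 20.6 TPM in wild-type libraries. The genotypes did not overlap, at 26.1% and 27.1% of the wild-type means, with differences of -1.75 ± 0.23 and -1.61 ± 0.23 (limma adjusted p = 6.79e-05 and 0.000163). Ankrd37, a HIF target of unsettled function, fell, with a log2 difference of -0.49 ± 0.14 and -0.43 ± 0.14. The treated call was lost when any of 4 of the 6 treated libraries was left out (wild-type replicate 2 or 3 and knockout replicate 2 or 3, all etoposide-treated; 0.0509 to 0.0902). Ankrd37 overlaps Ufsp2 on the opposite strand, which fell, with a log2 difference of -0.81 in untreated knockout cells.

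The collagen prolyl 4-hydroxylase subunits went opposite ways in untreated cells. P4ha1 fell, with a log2 difference of -0.30 ± 0.07 and -0.28 ± 0.07 in the 2 genotype comparisons. P4ha2 had 10.2, 10.2 and 9.55 TPM in untreated knockout and 5.70, 6.72 and 5.66 TPM in untreated wild-type libraries. That was a rise of 0.65 ± 0.09 (limma adjusted p = 8.89e-05), the largest rise among the tested members. Under etoposide P4ha2 had 12.4, 12.2 and 12.3 TPM in knockout and 11.6, 9.12 and 11.7 TPM in wild-type libraries, a difference of 0.18 ± 0.09 that did not pass (0.12) and was 0.07 (0.462) without etoposide-treated wild-type replicate 2. The histone demethylase Kdm3a, a HIF target in other cells, had 166, 171 and 165 TPM in untreated knockout and 161, 177 and 175 TPM in untreated wild-type libraries, which overlapped (-0.03 ± 0.04). Ndrg1 differed by -0.33 ± 0.14 and -0.32 ± 0.14 without passing (limma adjusted p = 0.0676 and 0.0864). The untreated difference of Ndrg1 passed without etoposide-treated wild-type replicate 1 or 2 (0.0492 and 0.0452), and the treated one without etoposide-treated wild-type replicate 2 (-0.45, 0.0255) or etoposide-treated knockout replicate 1 (-0.44, 0.0324). Vegfa, the vascular growth factor, differed by -0.11 ± 0.08 without etoposide and -0.23 ± 0.08 with it. The treated difference passed (limma adjusted p = 0.0373) but not without etoposide-treated wild-type replicate 1 or 3 or etoposide-treated knockout replicate 3 (0.0878 to 0.155). Of the untested members, Car9 stayed at or below 0.754 TPM in every library, and Adm had 0.778, 0.631 and 0.490 TPM in untreated knockout libraries and was listed at 0, 0.326 and 0 TPM in untreated wild-type libraries.

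The spread within groups was shared by many members. Under etoposide, wild-type replicate 2 was the lowest of its group for 29 of the 37 tested genes, and among untreated wild-type libraries replicate 1 was the lowest for 27. Untreated knockout replicate 3 was the highest of its group for 21, and etoposide-treated knockout replicate 2 the lowest for 19. This order was not counted over all tested genes, so a shift of a whole library cannot be told apart from one of these members. Without etoposide-treated wild-type replicate 2, the treated difference was -2.19 for Slc16a3, -1.98 for Bnip3, -1.28 for Egln3 and -0.84 for Ldha, and 29 genes fell and 2 rose.

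Etoposide itself changed fewer of these genes than genotype did, and the same held over all tested genes (49.6% and 44.1% passed for genotype). Counted in either direction, 37.8% of the members passed in wild-type and 29.7% in knockout cells, near the shares of all tested genes given here. In wild-type cells 9 of the 37 fell, 5 rose and 23 did not pass in etoposide-treated relative to untreated libraries, where 13.5% of all tested genes fell and 20.8% rose (34.3% together). Rises made up 60.7% of those calls, but 43.9% after quantile normalization (2771 genes lower and 2166 higher) and 51.05% under median-of-ratios scaling. The groups did not overlap for 11 lower and 5 higher members, against 19.6% and 27% of all tested genes (46.6% together). In knockout cells 8 fell, 3 rose and 26 did not pass, where 10.5% of all tested genes fell and 14.5% rose (25% together); rises made up 57.9% of those calls, and 49.2% after quantile normalization. The groups did not overlap for 10 lower and 7 higher members, against 18.1% and 21.4% (39.5% together). Without knockout replicate 3 only 7 passed in all. The medians were -0.10 in wild-type cells (0.02 over all tested genes) and -0.05 in knockout cells (0.00). Both comparisons share libraries with the genotype comparisons, so their values are given side by side and no agreement is read from them. Ldha, Pgk1, Eno1, Slc16a3 and Bnip3 passed in neither genotype: Ldha averaged 582 ± 14.3 TPM in etoposide-treated and 579.6 ± 20.0 TPM in untreated knockout libraries, and 1003 ± 67.4 and 1033 ± 28.2 TPM in wild-type libraries.

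The genes that fell with etoposide in both genotypes were 6: Slc2a3, Slc16a1, Hk2, Tpi1, Eno3 and Kdm3a. Slc16a1 fell, with a log2 difference of -0.38 ± 0.04 in knockout and -0.32 ± 0.04 in wild-type cells (limma adjusted p = 1.56e-05 and 3.22e-05). Slc2a3 averaged 1060.0 ± 38.3 TPM in etoposide-treated and 1287 ± 40.0 TPM in untreated knockout libraries (-0.28 ± 0.04). It averaged 908 ± 26.4 TPM in etoposide-treated and 1074 ± 63.0 TPM in untreated wild-type libraries (-0.24 ± 0.04). Hk2 fell, with a log2 difference of -0.25 ± 0.03 in knockout and -0.29 ± 0.03 in wild-type cells, while Hk1 did not pass in either (0.10 and 0.02). Without knockout replicate 3, Hk1 rose in knockout cells (0.14, limma adjusted p = 0.0228). Hk2 supplied 64.4% to 65.3% of hexokinase TPM in etoposide-treated and 69.8% to 70.2% in untreated knockout libraries, and 64.6% to 65.25% and 68.9% to 70.1% in wild-type libraries (exact permutation p = 0.1 in each genotype). Kdm3a, which did not pass between genotypes, had 143, 145 and 137 TPM in etoposide-treated knockout and 137, 136 and 146 TPM in etoposide-treated wild-type libraries, all below every untreated library (-0.24 ± 0.04 and -0.29 ± 0.04; 0.000992 and 0.000136). The knockout calls of Tpi1 and Eno3 each rested on single libraries: that of Tpi1 was lost without knockout replicate 3 (limma adjusted p = 0.0631) or etoposide-treated knockout replicate 2 (0.0516), and that of Eno3 without knockout replicate 2 or 3 or etoposide-treated knockout replicate 1 (0.055 to 0.0737). Pfn1, which overlaps Eno3, also fell with etoposide (-0.15 in knockout and -0.18 in wild-type cells).

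The genes that rose with etoposide in both genotypes were 3: Pfkm, Ldhb and P4ha2. Pfkm averaged 43.4 ± 1.36 TPM in etoposide-treated and 34.1 ± 1.01 TPM in untreated knockout libraries (0.34 ± 0.05), and 37.1 to 42.8 TPM in etoposide-treated and 29.2 to 31.5 TPM in untreated wild-type libraries (0.40 ± 0.05; limma adjusted p = 0.000501 and 7.69e-05). It made up 28.6% ± 0.309 of phosphofructokinase TPM in etoposide-treated and 21.8% ± 2.07 in untreated knockout libraries, and 20.0% ± 0.798 and 14.9% ± 0.302 in wild-type libraries. Ldhb rose by 0.10 ± 0.02 in each genotype; the wild-type call was lost under median-of-ratios scaling (0.07, limma adjusted p = 0.0507). P4ha2 rose by 0.28 ± 0.09 in knockout (0.0402) and 0.74 ± 0.09 in wild-type cells (4.04e-05), and the knockout call was lost when any of the 6 knockout libraries was left out (0.0694 to 0.113). The other 5 calls in wild-type cells were rises of Eno2 (0.42 ± 0.09) and Pfkfb4 (0.53 ± 0.09) and falls of Aldoa (-0.15), Gapdh (-0.14) and Pkm (-0.10). The other 2 calls in knockout cells were falls of Pfkp (-0.43 ± 0.12) and Vegfa (-0.27 ± 0.08). None of these passed the test of the difference between genotypes. Single libraries decided 4 of these calls: that of Gapdh was lost without wild-type replicate 1 or 2 or etoposide-treated wild-type replicate 2 or 3 (limma adjusted p = 0.0538 to 0.0872) and that of Pkm without wild-type replicate 2 or 3 or etoposide-treated wild-type replicate 2 (0.0636 to 0.106). The call of Pfkp was lost without knockout replicate 2 or 3 or etoposide-treated knockout replicate 2 (0.0705 to 0.0784), and that of Vegfa without knockout replicate 1 or 3 or etoposide-treated knockout replicate 3 (0.0542 to 0.101). With 1 library left out, some of these genes also passed in the other genotype. In knockout cells these were Eno2 without wild-type replicate 3 (limma adjusted p = 0.0247), Aldoa without knockout replicate 1 or etoposide-treated wild-type replicate 2 (0.0394 and 0.0427) and Gapdh without etoposide-treated knockout replicate 2 (0.00992). In wild-type cells they were Pfkp without knockout replicate 1 (0.0362) and Vegfa without etoposide-treated wild-type replicate 1 (0.0408); Pfkp passed there too in a fit of the compared groups alone (0.0144).

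**Figure D4:**
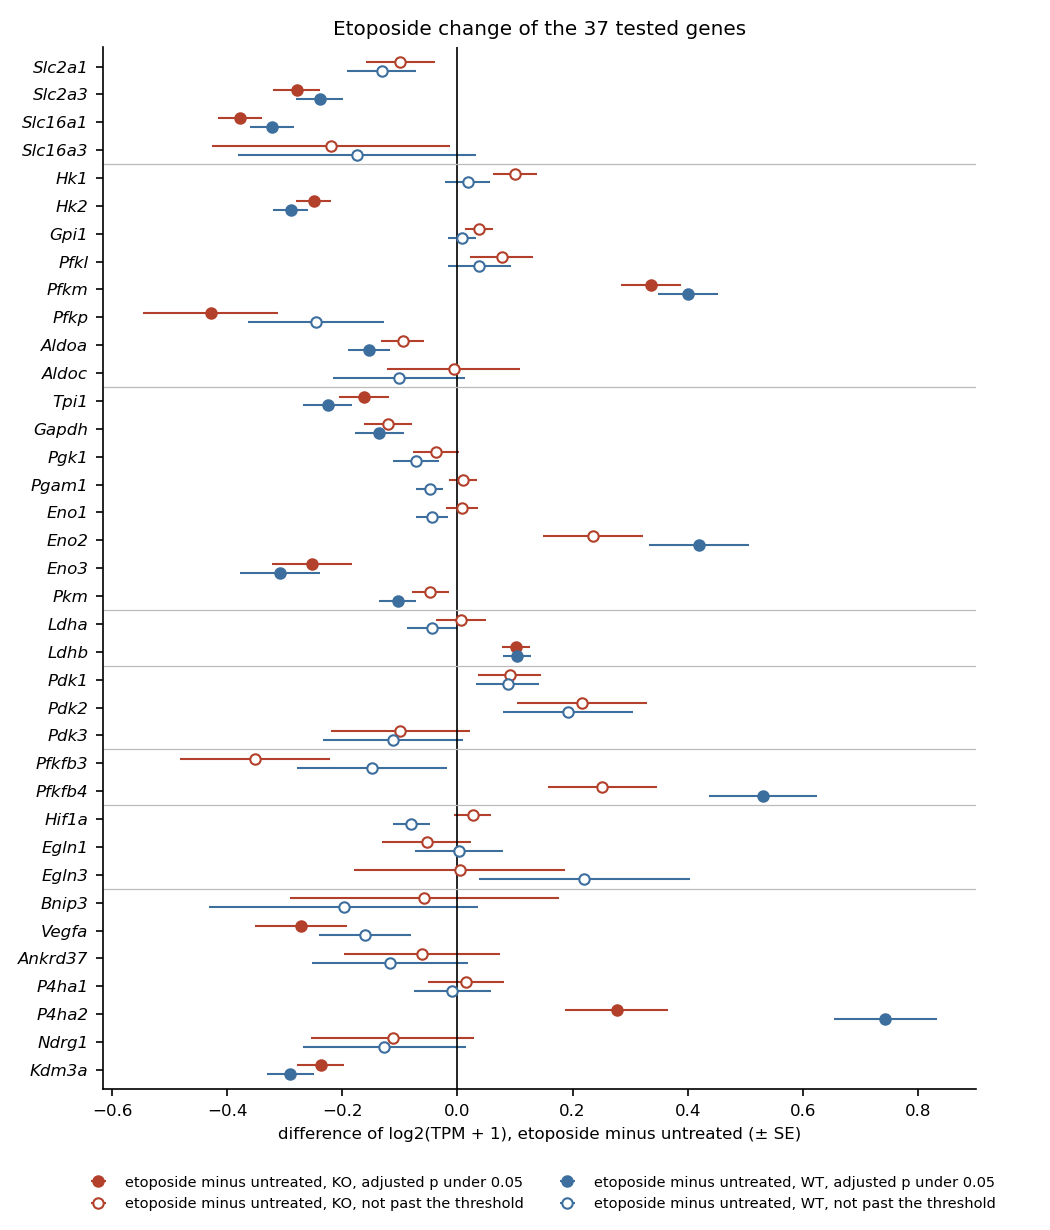
Difference of log2(TPM + 1) between etoposide-treated and untreated libraries for the 37 tested genes, as a point with its standard error, red for knockout and blue for wild type; filled points have an adjusted p under 0.05. Slc2a3, Slc16a1, Hk2 and Kdm3a lie left of 0 in both genotypes and Pfkm right of 0, and P4ha2 is the gene whose points are farthest apart, at 0.28 in knockout and 0.74 in wild type.

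The difference between the etoposide changes of the genotypes was tested directly as an interaction. By limma 0 of the 37 genes passed, where 1.23% of all tested genes did (1.16% negative and 0.0709% positive), and 2 had an unadjusted p under 0.05. The largest interaction was that of P4ha2, -0.47 ± 0.13 (limma adjusted p = 0.138), which passed without etoposide-treated wild-type replicate 2 (-0.57, 0.0272). For Ldha the interaction was 0.05 with a 95% interval of -0.08 to 0.18, and for Slc16a3 it was -0.05 with an interval of -0.68 to 0.59.

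In neighbouring pathways, read against the 49.6% of all tested genes that passed (21.5% lower and 28.1% higher), genes both fell and rose in untreated knockout relative to untreated wild-type cells. Of 17 tested further genes of glycolysis and glucose entry, 8 fell and 2 rose. Among them were Pgm1, the glycogen-side mutase, at 9.80 ± 0.0949 TPM in knockout and 19.4 ± 1.89 TPM in wild-type libraries (-0.91), and Pfkfb1, at 8.78 ± 1.31 and 15.8 ± 1.08 TPM (-0.78), while Pfkfb2 rose (0.42). Of 21 genes of the tricarboxylic acid cycle, 12 fell and 4 rose, with Suclg2, a succinyl-CoA ligase subunit, at -0.77 and the succinate dehydrogenase subunits Sdhc and Sdhb at -0.57 and -0.37. Of 11 genes of the pentose phosphate pathway, 5 fell and 2 rose, led by Pgls (-0.72) and transketolase Tkt (-0.30). Of 14 genes of mitochondrial pyruvate use, 3 fell and 4 rose, with Pdha1 at -0.21 and Pdk4 at 0.74. The list medians were -0.15, -0.09, -0.06 and 0.06, beside -0.31 for the glycolysis and hypoxia genes and 0.04 for all tested genes.

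The lists around the hypoxia response and its regulators were counted in the same comparison. Of 14 tested genes of oxygen sensing and the HIF machinery 5 fell and 0 rose (35.7% called, below the 49.6% of all tested genes), among them Vhl, the ubiquitin ligase subunit that binds hydroxylated HIF, at -0.35 ± 0.05, and Epas1, the second HIF alpha subunit, at -0.28 ± 0.05. Of 39 further hypoxia-response targets 12 fell and 12 rose, with Ddit4, a stress-induced inhibitor of mTORC1, at 67.5 ± 3.71 TPM in untreated knockout and 36.1 ± 3.15 TPM in untreated wild-type libraries (0.89) and Plod2, a collagen lysyl hydroxylase, at 0.66. Ndufa4l2, named after its value was seen, was the lowest of these at -2.04 ± 0.31, with 0.684, 0.380 and 0 TPM in untreated knockout and 3.07, 5.09 and 5.57 TPM in untreated wild-type libraries. Of 12 genes for MYC partners and other regulators of glycolytic genes 3 fell and 5 rose, with Lin28a at -0.54 ± 0.04 and Mlxipl, the glucose-responsive ChREBP, at 0.67 ± 0.12. Of 9 regulators of mitochondrial biogenesis 4 fell and 0 rose (44.4% called). Tfb1m, a mitochondrial ribosomal RNA methyltransferase, had 5.98 ± 0.511 TPM in untreated knockout and 27.6 ± 0.844 TPM in untreated wild-type libraries (-2.04 ± 0.08; limma adjusted p = 4.43e-09), and Tfam fell, with a log2 difference of -0.26.

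**Figure D5:**
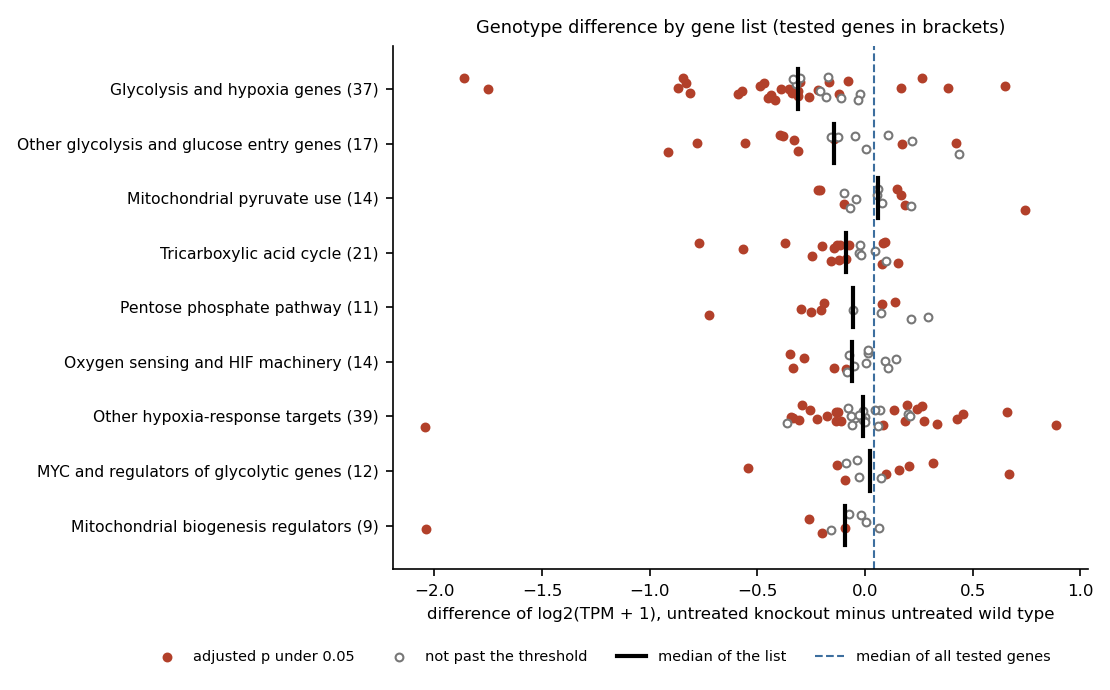
Difference of log2(TPM + 1) between untreated knockout and untreated wild type for each tested gene of the glycolysis and hypoxia list and of 8 neighbouring lists (points, spread vertically for legibility); filled points have an adjusted p under 0.05, black bars are list medians and the dashed line is the median of all 14107 tested genes. The glycolysis and hypoxia genes have the lowest median, -0.31, while the further hypoxia-response targets are centred at -0.01.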

How the data were processed

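Poly(A)-selected, rRNA-depleted RNA from 12 libraries was sequenced with a strand-specific kit, per the labels' protocols. Trim Galore 0.6.6, cutadapt 3.4, HISAT2 2.2.1 and StringTie 2.2.1 and build GRCm39 are named in the submitters' processing notes. Each deposited table gives coverage, FPKM and TPM per gene, per the file headers; TPM and FPKM are scaled by length and library by the authors. The strand setting of the counting is not given in the sources used here. No read counts are given, so precision rests on the spread between libraries, which the labels call biological replicates.

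The main test was limma 3.58.1 (R 4.3.3) with a mean-dependent prior on log2(TPM + 1) over the 14107 genes whose TPM averaged 1 or more, with 4 group means in 1 fit and Benjamini-Hochberg adjustment within each comparison; a fold on this scale understates changes of low genes. The fit was tested on simulated data. Summed levels and shares had two-sided exact permutation tests. Motifs were counted in RefSeq promoter windows.

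The members and lists were chosen with earlier results of these data known. Values in every library are given for Ldha, Pgk1 and up to 4 genes of each role: the 2 with the lowest adjusted p between untreated genotypes and the 2 with the lowest in any other comparison; other members have means or differences. From each neighbouring list up to 4 genes with the lowest adjusted p between untreated genotypes are named. Outside this rule, Ndufa4l2 was named after its value was seen, and Cdkn1a for its interaction call. Alternatives were another pseudocount, other filters, FPKM, other scalings, a replicate block, fits of the compared groups alone, a robust prior and each library left out.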

Additional observations from a re-analysis of the deposited data

Results flagged for a closer look

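Ddit4, in the list of further hypoxia-response targets, was flagged because its etoposide change on the log2(TPM + 1) scale differed between the genotypes. Its knockout libraries lay above its wild-type libraries at each treatment, and the change in TPM itself was not tested. It averaged 156 ± 2.31 TPM in etoposide-treated and 67.5 ± 3.71 TPM in untreated knockout libraries, and 125 ± 12.9 TPM in etoposide-treated and 36.1 ± 3.15 TPM in untreated wild-type libraries (SD, n = 3 each). The change was 1.20 ± 0.07 in knockout and 1.76 ± 0.07 in wild-type cells on the log2(TPM + 1) scale, and the interaction was -0.57 ± 0.10 (limma adjusted p = 0.0203). As reported, 2 genes of that list passed this test, Ddit4 and Cdkn1a. No gene of the list passed with the replicate block or with no filter on low values. Nor did any pass without untreated knockout replicate 1 or wild-type replicate 1, or without etoposide-treated knockout replicate 1 or 3. The call of Ddit4 was lost in those settings. Where 1 gene of the list passed, which gene it was is not given here. By limma 0 of the 37 glycolysis and hypoxia genes passed the interaction test, and 2 of them had an unadjusted p under 0.05.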

How the results depend on the processing

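Single-gene results of the members were compared over all alternatives and the 5 comparisons. They kept their side of the threshold in 4076 cases, gained a call in 71 and lost one in 61. Where either fit gave a call, the direction reversed in 0 cases. Changes of sign without a call were counted among the 4076. For etoposide in wild type, Slc16a3 went from -0.17 to 0.11 and Bnip3 from -0.20 to 0.17 without etoposide-treated wild-type replicate 2. The number of members called ranged from 28 to 31 between untreated knockout and wild type when 1 library was left out, and from 27 to 32 under the other alternatives (28 as reported). It ranged from 26 to 31 and from 26 to 29 between the genotypes under etoposide (28), and from 12 to 15 and from 13 to 15 for etoposide in wild type (14). For etoposide in knockout it ranged from 7 to 13 and from 8 to 12 (11), and for the interaction from 0 to 1 and stayed at 0 (0). The coverage column scaled to an equal total per library, an alternative chosen after seeing the data, is included; it lost the etoposide calls of Eno3 and gave Kdm3a a genotype call (-0.08, limma adjusted p = 0.0101).

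Libraries with the same replicate number did not deviate together (correlations of -0.04 to 0.05). With replicate number as a replicate block, 29, 28, 14, 10 and 0 members were called in the 5 comparisons; Pdk3 gained both genotype calls, Vegfa lost its genotype call under etoposide (0.0505) and P4ha2 its etoposide call in knockout (0.0664). Among the neighbouring lists, the count of further hypoxia-response targets with an interaction (2 as reported, Ddit4 and Cdkn1a) was 0 or 1 under several alternatives, the replicate block among them. Called genes of the tricarboxylic acid cycle numbered 2 to 3 for etoposide in either genotype under some alternatives (6 in knockout and 5 in wild type as reported). Without knockout replicate 1, 2 further glycolysis genes and 2 genes of mitochondrial pyruvate use passed for etoposide in knockout (4 each as reported). The largest shift of the median of all genes by a scaling was -0.07 (quantile normalization, etoposide in wild type). The tables hold no read counts, so the depth behind single values is unknown and that of each library is an estimate.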
